A study of Mus musculus with 21 samples.

Results

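The oxidative phosphorylation genes are the nuclear genes for the 5 enzyme complexes of the inner mitochondrial membrane, and they were chosen by name: every gene of the expression table that begins with Nduf and a, b, c, s or v with a number, with Uqcr, with Cox4 to Cox8 or with Atp5, and the 4 genes Sdha, Sdhb, Sdhc and Sdhd. The rule found 84 of the 23983 genes listed. RNA-seq levels were given as FPKM, a count of fragments scaled to transcript length and to the mapped fragments of the library, in 9 libraries of mouse cells with 1 library per group. Notochord progenitors (NotoP) and paraxial mesoderm progenitors (MP) were sorted from caudal tissue of embryos at E8.5 and at E9.5, trunk notochord cells from the trunk at both stages, and neuromesodermal (NMPdiff), notochord (NotoPdiff) and mesoderm (MPdiff) progenitor-like cells were sorted from differentiated cultures. All cells came from genetically modified F1G4 mouse embryonic stem cells, a C57BL/6N x SV129 hybrid line.

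The embryonic NotoP and trunk notochord libraries held cells positive for Noto, T and Foxa2 reporters, and the MP libraries held T-positive cells negative for Noto and Foxa2. The embryos carried T::H2B-Venus, Noto::H2B-mCherry and Foxa2::H2B-mTurquoise on bacterial artificial chromosomes. They are described as made by tetraploid complementation in the sample labels and by diploid morula aggregation in the study's text, and each library was a pool of embryos. The cultured line, controls included, carried TRE::Foxa2-IRES-EGFP in Rosa26, T::H2B-mCherry-T2A-irTA and Noto::H2B-mTurquoise, so that doxycycline turns on Foxa2 in cells that express T. All cultures received 10 ng/ml bFGF, and CHIR99021 followed. The NotoPdiff culture also received doxycycline at 1 ng/ml from day 2 to day 4, and its cells were sorted as Noto+ and T+, whereas NMPdiff and MPdiff were T+ and Noto-. The cultured libraries were sequenced on another instrument than the embryonic ones, so embryo and culture are set side by side and not compared.

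Oxidative phosphorylation makes most of the ATP of a respiring cell. Complex I (NADH dehydrogenase) and complex II (succinate dehydrogenase, also an enzyme of the tricarboxylic acid cycle) pass electrons to ubiquinone, complex III (cytochrome bc1) passes them to cytochrome c, and complex IV (cytochrome c oxidase) passes them to oxygen. Complexes I, III and IV pump protons out of the matrix, and complex V (ATP synthase) lets them back in to make ATP. Some core subunits are encoded in mitochondrial DNA, the others in the nucleus. Early postimplantation embryos and the presomitic tail bud are known for high glycolysis beside respiration.

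By complex, the 84 genes comprised 35 of complex I, 4 of complex II, 8 of complex III, 19 of complex IV and 15 of complex V. The other 3 are named like subunits but are not counted as such here: Cox7a2l, a factor that joins complexes III and IV into supercomplexes, Atp5sl, a complex I assembly factor, and Atp5s. Ndufa4 and its paralog Ndufa4l2 were placed in complex IV, where the Ndufa4 protein is found. In 79 of the 84 genes the mean over the 9 libraries reached 1 FPKM, as it did in 11922 genes of the table. The 5 below it were complex IV paralogs of other tissues: the heart and skeletal muscle isoforms Cox6a2, Cox7a1 and Cox8b, the testis isoform Cox8c, and Cox7b2. Of these, Cox6a2, Cox7b2, Cox8b and Cox8c were listed at 0 in all 9 libraries, and Cox7a1 reached at most 0.49 FPKM. None of the 13 protein-coding genes of mitochondrial DNA was among the listed genes, so levels here cover the nuclear subunits.

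Libraries differed in how many genes they listed at 0. The share was lowest in the cultured libraries, at 31.6% to 34.4% of the 23983 genes, lay between 44.7% and 51.7% in 5 of the embryonic libraries and was highest, at 58.1%, in E8.5 MP. Among the 5749 genes with a median of at least 10 FPKM, 87 were at 0 in E8.5 MP and 73 in E9.5 trunk notochord, against 1 to 25 in the other libraries. E8.5 MP and E9.5 trunk notochord therefore stand apart, and the E8.5 MP library was also made from the fewest cells. The 8 notochord markers summed to 1457 and 1247 FPKM in NotoP at E8.5 and E9.5, 1103 and 1232 in trunk notochord and 621 in NotoPdiff, with 423 in NMPdiff, against 79.3 and 165 in MP and 29.3 in MPdiff. Noto was listed at 0 in both MP libraries and in MPdiff. The 8 paraxial mesoderm markers summed to 252 and 594 FPKM in MP at E8.5 and E9.5 and to 386 and 320 in NotoP, so at E8.5 the NotoP sum was the higher one. The 8 blood markers summed to at most 2.3 FPKM in any library, the 8 heart and skeletal muscle markers to between 3.6 and 12.3, and the 6 pluripotency markers to 427 in NMPdiff and at most 17.5 elsewhere. With 1 library per group there is no replicate error: values below are levels or ratios of single libraries, no p-value is given, stages were not treated as replicates, and in sorted bulk RNA a lower level in each cell cannot be told apart from fewer cells that express the gene.

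Levels per length were high and ordered by complex in much the same way in every library. The median gene of complex I lay between 31.3 and 42.5 FPKM in the 9 libraries, that of complex III between 48.7 and 88.1, that of complex IV between 59.6 and 111, and that of complex V between 99.7 and 155. Complex II medians spanned 26.5 to 57.5 FPKM. In all 9 libraries the complex V median was the highest and the complex IV median second, so the order holds for the series although no neighbour difference could be tested. Within complex V the most abundant transcript was Atp5b, the catalytic beta subunit, at a mean of 335 FPKM, followed by Atp5g2, a gene for the c subunit of the rotor ring, at 221 and Atp5c1, the central stalk gamma subunit, at 202. Within complex III it was Uqcrh, the hinge subunit, at a mean of 221 FPKM, followed by Uqcrb at 134 and the core protein gene Uqcrc1 at 77.9. Uqcrh held the top place in 8 libraries and Uqcrb in the other.

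Complex IV was led by Cox6c, at a mean of 234 FPKM, with Cox4i1, the ubiquitous form of subunit 4, at 138 and Ndufa4 at 127. Cox6c was the top gene of the complex in 8 libraries and Ndufa4 in E8.5 MP. Complex I had no fixed leader. Its accessory subunit genes Ndufa12, Ndufa7 and Ndufa10 had the highest means, at 105, 91.5 and 69.5 FPKM, but 5 different genes took the top place in at least 1 library. Ndufa12 was at 53.8 FPKM in E8.5 NotoP and 107 in E9.5 NotoP, 208 and 148 in MP at these stages, 78.4 and 55.1 in trunk notochord, 112 in NMPdiff, 82.5 in NotoPdiff and 97.8 in MPdiff. It was thus higher in both MP libraries than in the NotoP library of the same stage.

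**Figure D1:**
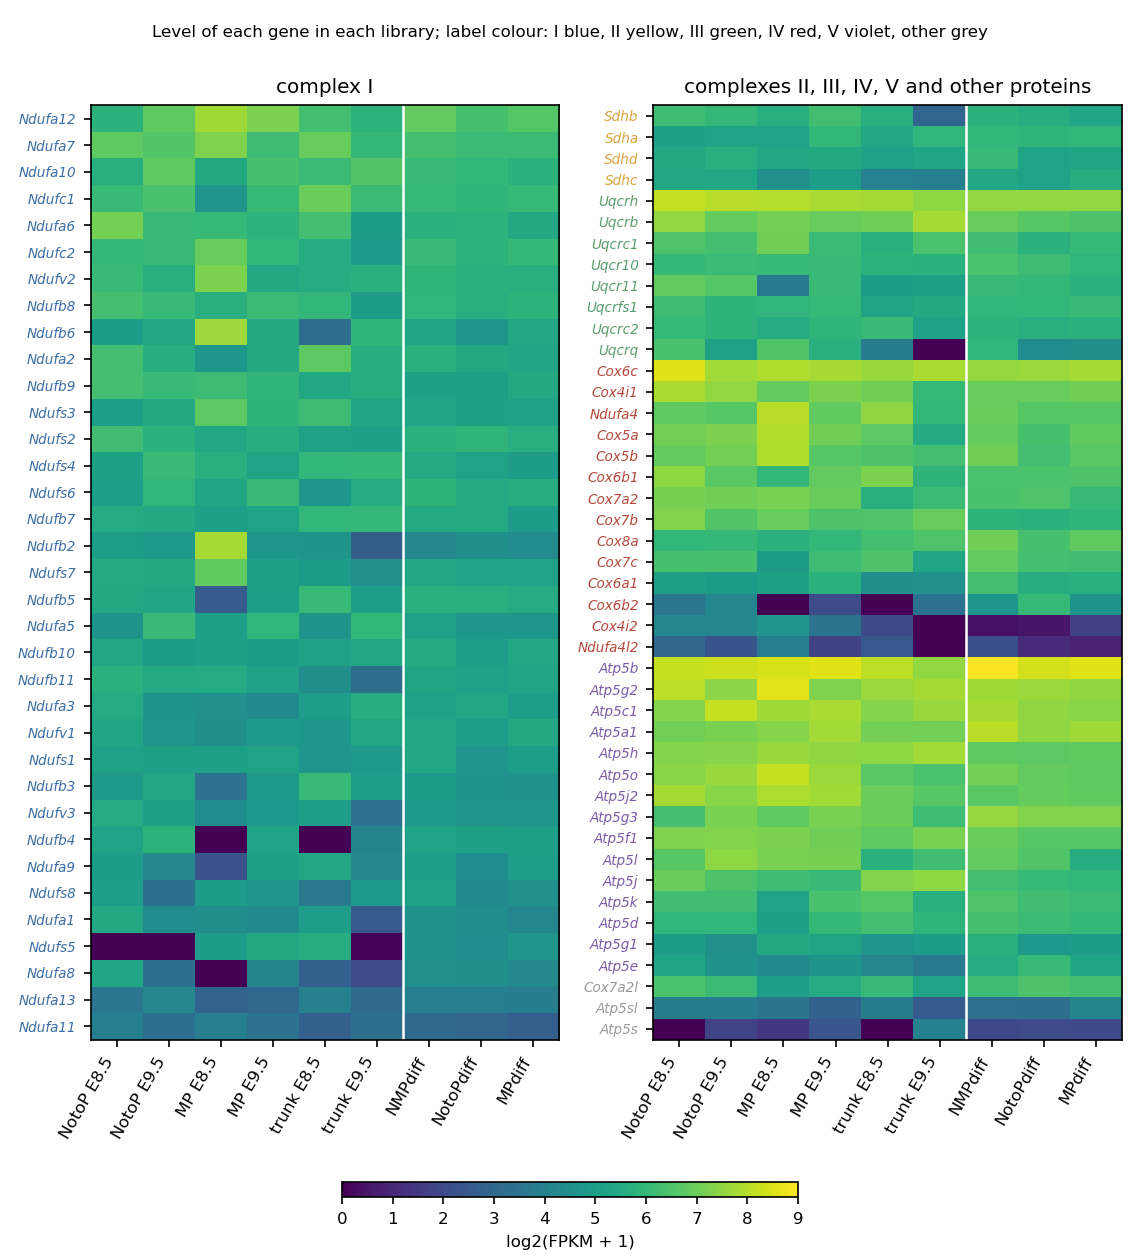
Level of the 79 genes whose mean reached 1 FPKM in each of the 9 libraries, as log2(FPKM + 1) in colour, complex I on the left and the others on the right, genes sorted by mean within a complex. The top genes of complexes III, IV and V are bright in every column, and the dark cells are single genes listed at or near 0 in 1 to 3 libraries.

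The 84 genes together took between 1.28% and 1.60% of the summed FPKM of a library. The share was 1.60% in E8.5 NotoP, 1.55% in E9.5 NotoP, 1.58% in E8.5 MP and 1.48% in E9.5 MP, and it was 1.41% and 1.28% in trunk notochord at the same stages. The 4 caudal progenitor libraries were above both trunk libraries. In culture it was 1.51% in NMPdiff, 1.35% in NotoPdiff and 1.34% in MPdiff, so both day 4 populations were below NMPdiff. Complex V took the largest part, 0.473% to 0.576%, and complex II the smallest, 0.0326% to 0.0546%. Complex IV ranged from 0.401% in E8.5 NotoP down to 0.242% in E9.5 trunk notochord.

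**Figure D2:**
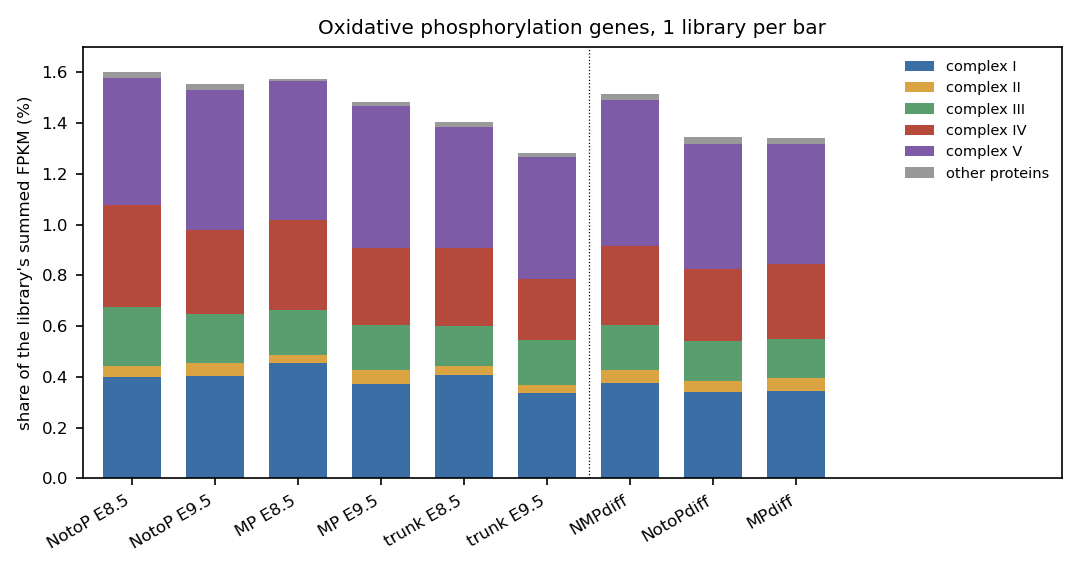
Percent of a library's summed FPKM taken by the genes of each complex, 1 stacked bar per library from 0, with the 3 other proteins on top. Trunk notochord at E9.5 has the lowest bar, 1.28%, and E8.5 NotoP the highest, 1.60%.

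Glycolysis took a similar share in the caudal embryonic libraries. Its 18 genes summed to 1.80% and 1.59% in NotoP, 1.54% and 1.52% in MP, 1.17% and 0.883% in trunk notochord, 1.11% in NMPdiff, 0.752% in NotoPdiff and 0.808% in MPdiff. Summed glycolysis levels over summed oxidative phosphorylation levels came to 1.12 and 1.02 in NotoP, 0.977 and 1.03 in MP, 0.83 and 0.689 in trunk notochord, and 0.733, 0.559 and 0.602 in NMPdiff, NotoPdiff and MPdiff. The share of both pathways was thus lower in trunk than in caudal notochord, and that of glycolysis by the larger factor.

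How much a gene varied from library to library was computed within the embryo and within the culture. Over the 3 cultured libraries the median coefficient of variation of the 79 genes was 13.9%, against 22.1% for all 11922 genes. Over the 6 embryonic libraries it was 39.6%, against 52.1% for all genes. Without E8.5 MP it was 33.8%, against 44.8%, and without E8.5 MP and E9.5 trunk notochord 29.2%, against 39.4%. The 79 genes were also more abundant, with a median mean level of 53.9 FPKM, against 10.3 for all genes. Over all 6 embryonic libraries the median was 24.7% for cytosolic ribosomal, 31.5% for proteasome, 34.8% for glycolysis and 50.3% for mitochondrial ribosomal genes. In culture these medians were 6.64%, 16.3%, 33.6% and 13.6%. In the embryo the complex III genes varied least, with a median of 25.7%, and complex V followed at 27.8%, while complex I reached 44.6%. Pearson correlations of log2(FPKM + 1) over the 79 genes were 0.96 in all 3 pairs of cultured libraries and 0.54 to 0.91 in the 15 pairs of embryonic libraries. All pairs share the same genes and libraries recur between pairs, so the values are descriptions. The 8 pairs of E8.5 MP with any other library lay between 0.54 and 0.76.

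NotoP and MP were the study's main comparison in the embryo, and here the subunit genes as a set had a median ratio near that of all genes. At E8.5 the median log2 ratio of (FPKM + 1) in NotoP over MP was 0.12 for the 79 genes, against 0.10 for all 11922 genes, with 45 higher in NotoP and 34 lower. At E9.5 it was 0.11 against 0.02, with 46 higher and 33 lower. Single genes spread around these medians. The quartiles of the 79 genes were -0.47 and 0.86 at E8.5 and -0.15 and 0.32 at E9.5. For all genes they were -0.59 and 1.08 at E8.5 and -0.36 and 0.49 at E9.5. At both stages 28 of the 79 genes (35.4%) were higher in NotoP, against 32.3% of all genes, and 16 (20.3%) were lower, against 24.8%. By complex the medians were 0.19, 0.31, 0.24, 0.09 and -0.29 for complexes I to V at E8.5 and 0.17, -0.03, 0.04, 0.14 and -0.06 at E9.5. The complex V genes were thus the lowest of the 5 groups at both stages.

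Single genes were counted past 3-fold in (FPKM + 1), which 11 of the 79 passed at E8.5 and 2 at E9.5. Without the 8 members below 1 FPKM in any library the counts were 7 and 0. The study used 3-fold in FPKM at both stages, and on the scale used here 1 member was at least 3-fold higher at both, where 2.61% of all genes were, and 1 lower, where 0.478% were. Of the 79 genes 6 were at least 3-fold higher in NotoP, 7.59%, where 16.6% of all genes were, and 5 were at least 3-fold lower, 6.33%, where 7.4% were. At least 2-fold in either direction were 28, against 42.4% of all genes. Those higher were Ndufa8, Ndufb4, Cox6b2, Uqcr11, Ndufb5 and Ndufa9, and those lower were Ndufs5, Ndufb2, Ndufb6, Ndufa12 and Ndufs3. At E9.5 only Cox6b2 was at least 3-fold higher, where 4.84% of all genes were, and only Ndufs5 at least 3-fold lower, where 2% were. At least 2-fold in either direction were 5 at E9.5, against 17.5% of all genes. Both genes had the same direction at E8.5, and the other 9 did not pass the rule at E9.5.

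Several complex I genes had values in E8.5 MP unlike any other library. They were not only genes of the accessory subunits, which surround the catalytic core. Ndufb2 was at 222 FPKM in E8.5 MP and between 5.22 and 31.1 in the other 8 libraries. Ndufb6 was at 204 FPKM there and between 8.24 and 57.9 elsewhere. Ndufb5 was at 5.20 FPKM there and between 30.9 and 66.0 elsewhere, and Ndufa9 at 3.93 against 18.0 to 39.9. The core subunit genes Ndufv2, Ndufs7 and Ndufs3 were at 150, 110 and 105 FPKM there. Elsewhere they lay at 42.2 to 65.5, 22.0 to 44.8 and 32.1 to 70.2. These genes thus go in opposite directions within 1 complex and in 1 library. The complex III gene Uqcr11 was at 11.9 FPKM in E8.5 MP, 66.1 in E9.5 MP, 112 and 99.0 in NotoP and between 30.3 and 67.7 in the others. Cox5a of complex IV was at 251 FPKM in E8.5 MP and between 44.7 and 147 in the others. That library listed the most genes at 0 and came from the fewest cells, and the part of either in these values was not tested.

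**Figure D3:**
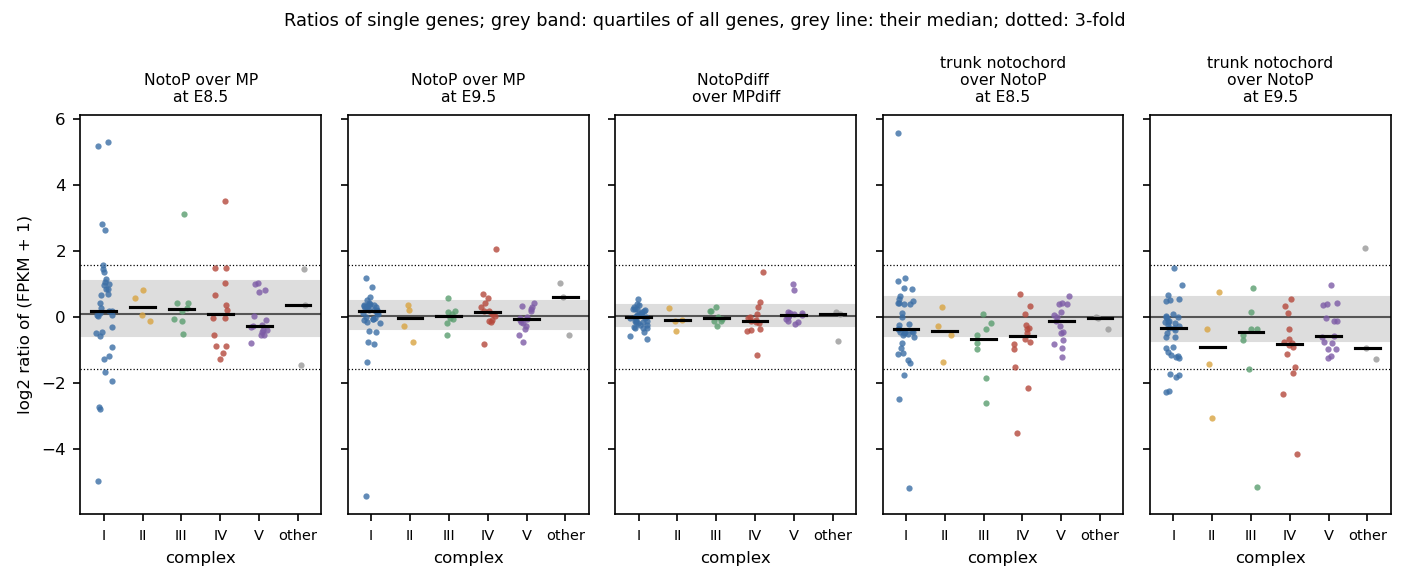
Log2 ratio of (FPKM + 1) for each of the 79 genes by complex in 5 comparisons, 1 library against 1, with the median of each group as a black bar, the quartiles and median of all 11922 genes as a grey band and line, and 3-fold as dotted lines. The complex medians lie on both sides of the line of all genes in NotoP over MP and below it in trunk notochord over NotoP.

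Of the 79 genes 16 (20.3%) were higher and 13 (16.5%) lower in notochord progenitors in all 3 pairs, the cultured one included, against 22.4% and 17.2% of all genes. Cox6b2 was the one of them with at least 2-fold in all 3, as 2.48% of all genes had in the higher direction. It is known as the testis isoform of the cytochrome c oxidase subunit 6B, and lies on chromosome 7 at 4751792 to 4753094 of GRCm38. Its level was 10.6 FPKM in E8.5 NotoP and 0 in E8.5 MP, 16.9 in E9.5 NotoP and 3.31 in E9.5 MP, and 63.7 in NotoPdiff against 24.0 in MPdiff and 25.5 in NMPdiff. Trunk notochord was listed at 0 at E8.5 and at 9.39 FPKM at E9.5. The cultured and caudal notochord cells were thus above their mesodermal counterparts in all 3 pairs, and the trunk differed between stages. On the log2 scale the ratio was 2.05 at E9.5 and 1.37 in culture. The ubiquitous isoform gene Cox6b1 was at 176 and 102 FPKM in NotoP, 61.7 and 112 in MP, 148 and 56.5 in trunk notochord, and at 87.5, 86.7 and 88.3 in NMPdiff, NotoPdiff and MPdiff. Cox6b1 was thus nearly level in culture and took no fixed side in the embryo. No near-identical copy of Cox6b2 was found in the genome.

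Cox4i2, the isoform of subunit 4 known from lung and oxygen-sensing cells, was found in the embryonic progenitors. Its level was 16.9 and 16.8 FPKM in NotoP, 25.0 and 10.1 in MP, 3.03 and 0 in trunk notochord, and 0.345, 0.469 and 2.27 in NMPdiff, NotoPdiff and MPdiff. All 4 caudal libraries were above both trunk libraries. The common isoform gene Cox4i1 was at 231 and 186 FPKM in NotoP, 112 and 149 in MP, 132 and 63.9 in trunk notochord, and 119, 118 and 133 in culture, so it was the main form everywhere. Ndufa4l2, a paralog of Ndufa4 known to be induced by hypoxia, was at 6.85 and 4.01 FPKM in NotoP, 13.5 and 2.37 in MP, 4.56 and 0 in trunk notochord, and 3.46, 1.16 and 0.767 in NMPdiff, NotoPdiff and MPdiff. Ndufa4 itself ranged from 62.8 FPKM in E9.5 trunk notochord to 264 in E8.5 MP.

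The other isoform groups were dominated by the widely expressed members. Cox6a1 lay between 20.6 and 80.5 FPKM, Cox7a2 between 49.6 and 145 and Cox8a between 52.4 and 132, while their muscle and testis counterparts were at or near 0. The c subunit of ATP synthase is made from 3 genes whose mature proteins are the same. Atp5g2 was at a mean of 221 FPKM, Atp5g3 at 132 and Atp5g1 at 32.8. Atp5g1 was the lowest of the 3 in all 9 libraries, and Atp5g3 exceeded Atp5g2 in none. The ratio of Atp5g2 to Atp5g3 was widest in E8.5 MP, where they stood at 397 and 107 FPKM. In NMPdiff they stood at 207 and 192 FPKM. Near-identical copies of Atp5g1 and Atp5g2 exist in the genome, so reads could be shared.

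Complex II has 4 subunits, all nuclear, and each was found in every library. Sdha, the flavoprotein that oxidises succinate, was at 33.3 and 35.4 FPKM in NotoP, 36.3 and 60.6 in MP, 41.5 and 59.9 in trunk notochord and 61.2, 57.9 and 61.6 in NMPdiff, NotoPdiff and MPdiff. It was lower in NotoP than in the MP library of each stage. Sdhb, the iron-sulphur subunit, was at 72.1 and 62.4 FPKM in NotoP, 48.4 and 75.9 in MP, 49.2 and 6.65 in trunk notochord and 53.8, 47.2 and 38.7 in culture. The E9.5 trunk value lay far below the other 8. Sdhc, a membrane anchor, was at 14.9 and 14.1 FPKM in trunk notochord and between 22.0 and 48.1 in the others, while the other anchor Sdhd lay between 34.2 and 65.6 FPKM with no library apart.

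Ndufs5, a small complex I subunit of the intermembrane space side, was listed near 0 in 3 of the embryonic libraries and high in the others. It was listed at 0.0116 and 0.00213 FPKM in NotoP at E8.5 and E9.5 and at 0.0742 in E9.5 trunk notochord, but at 47.5 FPKM in E8.5 trunk notochord, 30.6 and 42.2 in MP, 23.7 in NMPdiff, 19.2 in NotoPdiff and 24.6 in MPdiff. Every value was either below 0.1 or above 19 FPKM. The 2 trunk libraries fell on different sides and the cultured NotoPdiff cells were on the high side. Of the 5749 genes with a median of at least 10 FPKM, 1 was below 0.1 in both NotoP libraries and at least 10 in both MP libraries, and it was Ndufs5.

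The Ndufs5 gene lies on chromosome 4 at 123712710 to 123718186 of GRCm38, and its transcript of 509 bases has a copy elsewhere in the genome. On chromosome 16 at 42955560 to 42956063, at the annotated pseudogene Ndufs5-ps and within the gene span of Zbtb20, 504 bases were aligned with an identity of 99.6% and no gap. Only 2 bases differed, T157C and A181G, with positions counted from the 5′ end of the transcript and the gene's base given first. Both lay in the coding sequence, and the longest stretch without a difference was 328 bases. The bases around each difference, capitals marking the base that differs, are shown because a read that covers neither cannot tell gene from copy:
Ndufs5 around position 157: cgcagaacagccctaTaagaacgccgctcg
copy at the same place: cgcagaacagccctaCaagaacgccgctcg
Ndufs5 around position 181: cgctcggtgccacgcAtttgaaaaagagtg
copy at the same place: cgctcggtgccacgcGtttgaaaaagagtg
The authors kept 1 alignment per read. Values near 0 in this gene may be quantification faults, and whether its reads were placed at the copy was not tested, so no ratio of Ndufs5 is read as a difference between cells.

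Other genes listed near 0 in some libraries were few, and not all have a copy. At least 1 library below 1 FPKM and another of at least 10 were found in 8 of the 84 genes: Ndufs5, Ndufb4, Ndufa8, Uqcrq, Cox4i2, Cox6b2, Ndufa4l2 and Atp5s. Among the 74 with a median of at least 10 FPKM, 5 (6.76%) had a library below 0.1, against 3.11% of all 5749 such genes. Ndufb4, an accessory subunit of complex I, was at 0 in E8.5 MP and E8.5 trunk notochord, at 15.7 FPKM in E9.5 trunk notochord and between 32.7 and 55.3 in the other 6. Its transcript has 2 copies, on chromosomes 15 and 19, of 99.6% and 99.1% identity. Ndufa8, a complex I accessory subunit, was at 0 in E8.5 MP, at 38.3 FPKM in E8.5 NotoP and between 3.22 and 21.8 in the others, and Atp5s was at 0 in E8.5 NotoP and E8.5 trunk notochord, at 14.4 FPKM in E9.5 trunk notochord and between 1.75 and 4.31 in the other 6. For neither was a copy found in a search with its longest transcript. Of the 84 genes 21 have at least 1 genomic copy of 95% identity over at least 50% of the transcript, and of the 8 named here Ndufs5 and Ndufb4 do.

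**Figure D4:**
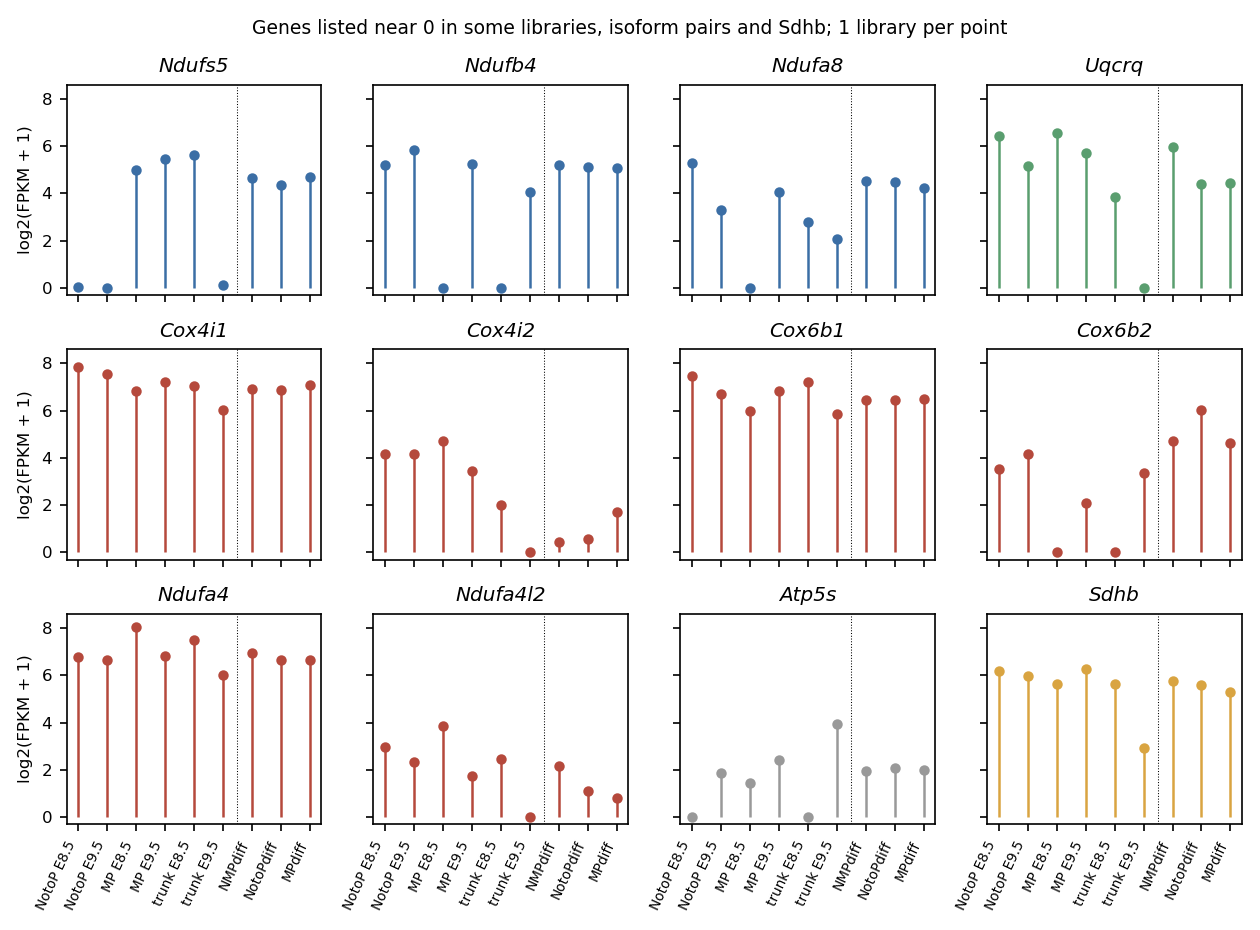
Levels of 12 genes in the 9 libraries as log2(FPKM + 1), 1 point per library, embryo left and culture right of the dotted line. Ndufs5 is near 0 in 3 embryonic libraries, Cox6b2 is higher in NotoP than in MP at both stages and in NotoPdiff than in MPdiff, and Sdhb has its lowest value, 6.65 FPKM, in E9.5 trunk notochord.

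Trunk notochord and caudal NotoP were compared at each stage, and the subunit genes were mostly lower in the trunk. Both trunk libraries were made from fewer cells than the NotoP library of the same stage, and E9.5 trunk notochord stands apart. Of the 5749 genes with a median of at least 10 FPKM, 25 and 73 were at 0 in trunk notochord at E8.5 and E9.5. In NotoP 5 and 1 were. By the study's sample list the trunk sorts also spanned a wider range of somite stages than the NotoP sorts. At E8.5 the trunk sort was Foxa2-high and the NotoP sort Foxa2-positive. The parts of cell number, somite stage and Foxa2 gate in the trunk ratios were not tested. At E8.5 the median log2 ratio of trunk notochord over NotoP was -0.37, against 0 for all genes, with 53 of the 79 genes lower, 25 higher and 1 equal. At E9.5 it was -0.54 against -0.01, with 59 lower and 20 higher. In 40 of the 79 genes (50.6%) the trunk was lower at both stages, against 28.01% of all genes, and in 6 (7.59%) it was higher at both, against 27.1%. The complex medians at E8.5 were -0.36, -0.41, -0.67, -0.59 and -0.11 for complexes I to V, and at E9.5 -0.34, -0.90, -0.46, -0.81 and -0.57. All 5 were below 0 at both stages.

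Large single-gene differences between trunk notochord and NotoP were counted in both directions. At E8.5 7 of the 79 genes (8.86%) were at least 3-fold lower, where 7.39% of all genes were, and 1 at least 3-fold higher, where 7.37% were. At least 2-fold lower were 14, against 14.3%, and at least 2-fold higher 3, against 15.5%. At least 2-fold in either direction were 29.9% of all genes and 17 of the 79. At E9.5 10 genes (12.7%) were at least 3-fold lower, where 9.71% of all genes were, and 1, Atp5s, at least 3-fold higher, where 7.08% were. At least 2-fold lower were 22, against 18.7%, and at least 2-fold higher 2, against 14.4%. In either direction these made 24 of the 79 and 33.1% of all genes. Without the members below 1 FPKM in any library, those past 3-fold in either direction were 2 at E8.5 and 6 at E9.5, in place of 8 and 11.

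The genes at least 3-fold lower in trunk notochord belonged to 4 complexes. At E8.5 they were Ndufb4, Ndufa8 and Ndufb6 of complex I, Uqcrq and Uqcr11 of complex III, and Cox6b2 and Cox4i2 of complex IV. At E9.5 they were Ndufb11, Ndufb2, Ndufa1, Ndufb4 and Ndufv3 of complex I, Sdhb, Uqcrq, and Cox4i2, Ndufa4l2 and Cox5a. Uqcrq, a small complex III subunit that binds ubiquinone, was at 13.2 and 0 FPKM in trunk notochord against 85.0 and 34.8 in NotoP, 93.6 and 51.3 in MP, 60.3 in NMPdiff, 19.7 in NotoPdiff and 20.8 in MPdiff. Both trunk libraries were below all others. Ndufb11 was at 20.6 and 8.36 FPKM in trunk notochord and between 34.3 and 52.0 in all others, and Ndufb11 has a genomic copy. At least 2-fold lower at both stages were 7 genes (8.86%), where 5.02% of all genes were: Cox4i2, Ndufa8, Ndufb11, Ndufb4, Sdhc, Uqcr11 and Uqcrq. Of these Cox4i2, Ndufb4 and Uqcrq were listed at 0 in a trunk library. Ndufb4 and Uqcr11 have near-identical genomic copies, as Ndufb11 does.

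A lower level in the trunk was not found in the respiratory genes alone. For trunk over NotoP the median was -0.38 at E8.5 and -0.68 at E9.5 for 77 cytosolic ribosomal genes, -0.29 and -0.29 for 77 mitochondrial ribosomal genes, -0.19 and -0.25 for 36 proteasome genes, and -0.72 and -0.79 for the 18 glycolysis genes. The trunk and caudal sorts also differed in markers of other cells. The 8 paraxial mesoderm markers summed to 21.0 and 11.8 FPKM in trunk notochord against 386 and 320 in NotoP, with Tbx6, Msgn1 and Hes7 at 0 in both trunk libraries. The 8 neural tube markers summed to 107 and 71.5 FPKM against 38.5 and 30.7, with Pax6, Olig2 and Neurog2 at 0 in both trunk libraries, and the 7 gut endoderm markers to 121 and 65.7 against 77.1 and 32.9, with Sox17 at 0 in both. The part of other cell types in the lower subunit levels was not tested.

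NotoPdiff and MPdiff, the cultured counterparts, had nearly the same subunit levels. The median log2 ratio was -0.01, against 0.02 for all genes, with 37 of the 79 genes higher in NotoPdiff and 42 lower. None passed 3-fold in (FPKM + 1) in either direction, where 2.82% of all genes were higher and 0.78% lower, and with 0.1 FPKM added in place of 1, Cox4i2 did. At least 2-fold in either direction were 2 genes, Cox6b2 higher and Cox4i2 lower, against 9.87% of all genes. The quartiles of the 79 genes were -0.16 and 0.15. Atp5b, the most abundant of the set, was at 343 FPKM in NotoPdiff and 375 in MPdiff, and Uqcrh at 183 and 184. Only NotoPdiff received doxycycline, so treatment and cell type cannot be told apart here. The 7 gut endoderm markers summed to 238 FPKM in NotoPdiff and 23.2 in MPdiff, and the part of such cells was not tested.

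Both day 4 populations were below NMPdiff in most subunit genes. NotoPdiff was lower in 65 of the 79 genes (82.3%) and MPdiff in 58 (73.4%), where 49.2% and 52.2% of all genes were. The median log2 ratios were -0.22 and -0.23, against 0.01 and -0.02 for all genes. The NMPdiff library is shared by both, so these are not separate observations. None passed 3-fold in (FPKM + 1), and with 0.1 FPKM added in place of 1, Uqcrq did in NotoPdiff and Cox4i2 and Ndufa4l2 did in MPdiff. Of all genes 2.35% were at least 3-fold higher and 1.23% lower in NotoPdiff, and 1.72% higher and 2.55% lower in MPdiff. At least 2-fold in either direction were 3 genes in NotoPdiff, against 10.9%, and 4 in MPdiff, against 10.1%. Uqcrq was lower in both, at 19.7 and 20.8 FPKM against 60.3. Atp5l, a membrane subunit of ATP synthase with 10 genomic copies, was at 46.6 FPKM in MPdiff, 94.0 in NotoPdiff and 114 in NMPdiff. Complex V had the lowest medians in both, -0.28 and -0.35. Lower levels than in NMPdiff were not confined to the respiratory genes. The medians in NotoPdiff and MPdiff were -0.49 and -0.42 for the 18 glycolysis genes and -0.37 and -0.27 for 36 proteasome genes. They were -0.26 and -0.17 for 77 mitochondrial ribosomal genes, but 0.07 and 0.03 for 77 cytosolic ribosomal genes. The study took NMPdiff cells at day 3. The 6 pluripotency markers summed to 427 FPKM in NMPdiff, against 16.6 in NotoPdiff and 17.5 in MPdiff. The parts of culture day and of cells with these markers in the lower subunit levels were not tested.

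From E8.5 to E9.5 the subunit genes did not shift the same way in every cell type. The median log2 ratio of E9.5 over E8.5 was -0.12 in NotoP, 0.08 in MP and -0.16 in trunk notochord, against 0, 0.10 and 0 for all genes. Lower at E9.5 were 50 of the 79 genes in NotoP (63.3%), 38 in MP (48.1%) and 44 in trunk notochord (55.7%). Of all genes 49.3%, 42.8% and 49% were. In NotoP 1 of the 79 was at least 3-fold higher at E9.5, where 4.12% of all genes were, and 2 lower, where 3.28% were. In MP 6 were higher, where 11.7% were, and 5 lower, where 5.95% were. In trunk notochord 4 were higher, where 7.13% were, and 8 lower, where 9.82% were. At least 2-fold in either direction were 7, 20 and 27 of the 79 in NotoP, MP and trunk notochord, against 19.5%, 34.8% and 33.1% of all genes. The MP and trunk comparisons each rest on a library that stands apart.

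Other genes of the pathway gave a mixed picture between NotoP and MP. The 15 genes of the tricarboxylic acid cycle and pyruvate dehydrogenase, which feed complexes I and II, were lower in NotoP in 12 at E8.5 and 13 at E9.5, where 42.9% and 46.9% of all genes were, with medians of -1.08 and -0.45. NotoPdiff was below MPdiff in 11, where 47.6% of all genes were, with a median of -0.17. Citrate synthase (Cs), which opens the cycle, had log2 ratios of -1.08, -1.08 and -0.21, and the malate dehydrogenase gene Mdh2 -1.46, -0.78 and -0.14. At 3-fold, 3 of the 15 were lower and 1 higher in NotoP at E8.5, where 7.4% and 16.6% of all genes were, and none at E9.5 or in culture. Idh3b was on the other side in all 3 pairs, at 0.99, 0.33 and 0.01. In trunk over NotoP the medians of the 15 were 0.21 at E8.5 and -0.23 at E9.5.

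Assembly factors build the complexes but are not part of them. Of the 43 listed 41 passed the level filter, and in NotoP over MP the median was 0.14 at E8.5 and -0.02 at E9.5. In NotoP 24 and 20 of the 41 were higher (58.5% and 48.8%), near the 53.7% and 51.4% of all genes. The median in trunk over NotoP was -0.08 and -0.34. At E9.5 26 of the 41 (63.4%) were lower in the trunk, where 50.2% of all genes were. The 6 carriers and subunits outside the name rule (Cyc1, Cycs, Ndufab1, Etfdh, Etfa and Etfb) had medians of -0.51 and -0.03 in NotoP over MP. In trunk over NotoP their medians were 0.46 at E8.5 and -0.01 at E9.5. At E8.5 5 of these genes were higher in the trunk, where 49.5% of all genes were. Of them Cycs, cytochrome c, was at 14.2 and 19.4 FPKM in NotoP, 35.6 and 44.5 in MP, 23.7 and 23.3 in trunk notochord, and 45.2, 25.6 and 29.1 in NMPdiff, NotoPdiff and MPdiff. It was lower in NotoP than in MP at both stages.

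Regulators of mitochondrial genes were counted in the same way. Of 11 listed 9 passed the level filter, with medians of 0.22 and -0.56 in NotoP over MP at E8.5 and E9.5. The coactivator genes Ppargc1a and Ppargc1b had means below 1 FPKM. Tfam, which packages and transcribes mitochondrial DNA, lay between 16.4 and 29.8 FPKM in all 9 libraries. Nrf1, an activator of many respiratory genes, was at 4.34 FPKM in E8.5 MP and between 7.96 and 20.6 in the others. Gabpa, an ETS family factor, was at 4.16 in E8.5 MP and between 16.3 and 25.5 in the others. The Yy1 gene went the other way, at 69.2 FPKM in E8.5 MP and between 29.3 and 49.3 in the others. E8.5 MP is a library that stands apart.

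Respiratory genes are known to be controlled by NRF1, by ETS factors such as GABP and by YY1, so their promoters were searched for GCGCATGCG (NRF1), CCGGAAG (ETS) and AAGATGGC (YY1) on both strands. RefSeq promoters of GRCm38.p6, 250 bases before to 50 after a start, were on hand for 66 of the 79 genes. NRF1 letters were found in 8 (12.1%), against 4.28% of the 9453 genes at the same minimum level and 1.95% of all 27025 genes of the promoter table. ETS letters were found in 16 (24.2%), against 20.9% and 9.93%, and YY1 letters in 11 (16.7%), against 5.59% and 3.19%. Any of the 3 was present in 30 (45.5%), against 28.3% and 14.1%. The NRF1 letters on one strand often overlap those on the other, since the full site reads nearly the same both ways. A match is not evidence of binding.

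**Figure D5:**
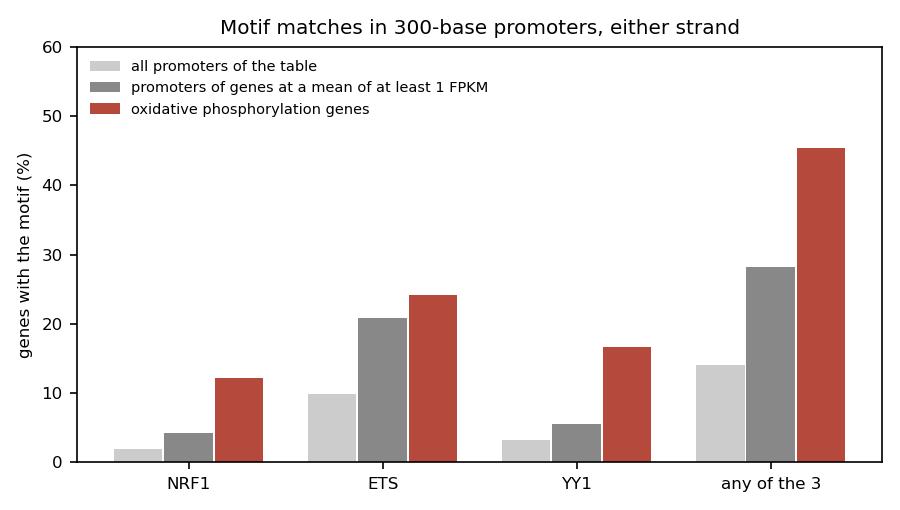
Percent of genes with at least 1 match to each motif in a promoter of 300 bases, for all genes of the promoter table, for genes whose mean reached 1 FPKM and for the oxidative phosphorylation genes among them. The bars of the oxidative phosphorylation genes are above those of other genes of that level for the NRF1 letters, 12.1% against 4.28%, and the YY1 letters, 16.7% against 5.59%, and closer to them for the ETS letters, 24.2% against 20.9%.

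The promoters of Cox6a1 and Uqcr11 are shown whole as examples that hold both NRF1 and ETS letters, which are in capitals. They lie at chr5:115348909-115349208 on the minus strand and at chr10:80406772-80407071 on the minus strand of GRCm38.p6:
Cox6a1: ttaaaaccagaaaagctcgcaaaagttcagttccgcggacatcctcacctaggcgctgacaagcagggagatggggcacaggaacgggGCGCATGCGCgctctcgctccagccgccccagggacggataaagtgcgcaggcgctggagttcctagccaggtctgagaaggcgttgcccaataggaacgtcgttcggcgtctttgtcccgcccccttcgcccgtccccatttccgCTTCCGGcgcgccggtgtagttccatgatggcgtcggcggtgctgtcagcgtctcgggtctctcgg
Uqcr11: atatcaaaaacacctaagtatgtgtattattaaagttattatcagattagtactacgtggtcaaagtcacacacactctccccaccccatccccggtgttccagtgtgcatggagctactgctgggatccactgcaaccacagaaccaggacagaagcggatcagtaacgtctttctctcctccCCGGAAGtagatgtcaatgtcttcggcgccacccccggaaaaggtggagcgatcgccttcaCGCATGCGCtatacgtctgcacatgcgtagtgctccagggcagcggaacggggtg

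YY1 letters sat in a narrow place. In 9 of the 11 genes they were read along the gene between 22 and 38 bases after the start, which was seen only after the search. Such a match after the start was present in 13.6% of the 66 genes, against 2.67% of the 9453 genes and 1.04% of all genes of the table. The 8 letters contain ATG. In 30 bases around them, capitals marking the motif, the 9 genes read:
Ndufa3, chr7:3617384-3617413, plus strand: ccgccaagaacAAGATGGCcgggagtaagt
Ndufa9, chr6:126849097-126849126, minus strand: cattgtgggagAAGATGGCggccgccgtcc
Ndufb8, chr19:44555393-44555422, minus strand: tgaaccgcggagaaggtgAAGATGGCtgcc
Ndufc1, chr3:51408915-51408944, minus strand: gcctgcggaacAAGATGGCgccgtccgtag
Ndufs4, chr13:114388045-114388074, minus strand: gcgtttgcctacaggAAGATGGCggcggtc
Ndufs6, chr13:73328433-73328462, minus strand: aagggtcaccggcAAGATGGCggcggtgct
Ndufs7, chr10:80249462-80249491, plus strand: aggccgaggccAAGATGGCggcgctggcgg
Atp5j2, chr5:145191500-145191529, minus strand: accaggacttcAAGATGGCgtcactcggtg
Atp5sl, chr7:25619429-25619458, plus strand: cgttacctggcAAGATGGCggcgcccagag
By complex, YY1 letters anywhere in the promoter were found in 7 of 31 genes of complex I (22.6%), 3 of 14 of complex V (21.4%) and 1 of the 3 other genes, and in none of the 3, 5 and 10 promoters of complexes II, III and IV.

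Binding of T and Foxa2, the factors that drive notochord fate, was measured by ChIP-seq in bulk NotoPdiff cultures with 1 library per factor, and the subunit genes were not rich in it. A T peak summit lay within 5000 bases of the start in 2 of the 66 genes (3.03%), against 8.05% of the 9453 genes, and a Foxa2 summit in 7 (10.6%), against 11.3%. The T peaks were at Cox7c and Ndufb2, and the Foxa2 peaks at Ndufa10, Ndufa12, Ndufb3, Ndufb5, Ndufb7, Ndufs7 and Sdhd. Within 1000 bases there was 1 gene with a T peak (1.52%), against 4.88% of the 9453 genes, and none with a Foxa2 peak, against 2.49%. That gene was Ndufb2, whose T peak on chromosome 6 at 39592509 to 39592802 had its summit 3 bases from the start and a fold enrichment of 4.36 over background. The levels of Ndufb2 were 21.4 FPKM in NotoPdiff and 19.5 in MPdiff. Its promoter, chr6:39592315-39592614 on the plus strand, is shown as the one under a peak summit and holds none of the 3 motifs:
Ndufb2: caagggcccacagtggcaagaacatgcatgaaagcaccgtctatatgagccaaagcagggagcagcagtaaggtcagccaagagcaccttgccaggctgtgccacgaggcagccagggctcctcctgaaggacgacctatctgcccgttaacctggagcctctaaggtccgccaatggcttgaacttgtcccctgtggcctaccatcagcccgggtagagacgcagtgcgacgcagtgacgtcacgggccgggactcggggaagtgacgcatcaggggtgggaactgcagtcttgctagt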

How the data were processed

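The authors prepared RNA-seq libraries with the Ovation SoLo kit, aligned reads to mm10 with TopHat2 2.1.1 and Bowtie 1.2.2 keeping 1 alignment per read, removed duplicates by molecular identifiers and deposited FPKM from Cufflinks 2.2.1, computed without effective length correction. The expression table holds no read counts, the read totals that the study gives were not used here, and no counting interval is given. For ChIP-seq the authors deposited peaks of MACS3 3.0.0b1 with a score, fold enrichment ratio and -log10 p and q values, called at a q of 0.1 after Bowtie 1.3.1. The other chromatin samples of the series were not used here.

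Members and lists were chosen with earlier results of these data known. Ratios were log2 of (FPKM + 1) in the 11922 genes whose mean over the 9 libraries reached 1 FPKM, with 3-fold, a size taken from the study but applied here to each comparison alone, and 2-fold beside it. With 1 library per group no test was run. The scripts were tested on simulated data. Genes named were the 3 most abundant of each complex, those past 3-fold between NotoP and MP, between the cultured pair or between trunk notochord and NotoP, those below 1 FPKM in 1 library and at least 10 in another, isoform groups and complex II. Atp5l, Ndufv2, Ndufs7 and the genes under peaks were chosen after their values were seen. So were the list genes Cs, Mdh2, Idh3b, Cycs, Tfam, Nrf1, Gabpa, Yy1, Ppargc1a and Ppargc1b. The longest RefSeq transcript of each gene was searched against GRCm38.p6 with BLAST 2.17.0 for copies of at least 95% identity over 50% of the length. A copy of a shorter transcript form could be missed. Work was done in Python 3.11.15 with pandas 2.3.3. Alternatives were a pseudocount of 0.1, no level filter, other scalings, removal of members near 0 or with a copy, and other peak limits.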

Additional observations from a re-analysis of the deposited data

Results flagged for a closer look

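Ndufa8 went in opposite directions with stage in NotoP and MP. The log2 ratio of E9.5 over E8.5 was -2.02 in NotoP, from 38.3 to 8.71 FPKM, and 4.04 in MP, from a value listed at 0 to 15.5 FPKM. The difference was not tested, since each group is 1 library.

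Ndufb6 went in opposite directions with stage in MP and trunk notochord. The log2 ratio was -2.26 in MP, from 204 to 42.0 FPKM, and 2.67 in trunk notochord, from 8.24 to 57.9 FPKM. This difference was not tested either, and both E8.5 MP and E9.5 trunk notochord are libraries that stand apart.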

How the results depend on the processing

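The median of NotoPdiff over MPdiff, -0.01, was 0.0024 with libraries rescaled to the same sum of FPKM and 0.0081 with the median of ratios, and that of MP between stages was 0 without a level filter. No other median turned sign. Rescaling each library to the same sum of FPKM moved the median log2 ratio to 0.24 for NotoP over MP at E8.5, to -0.27 and -0.43 for trunk notochord over NotoP at E8.5 and E9.5 and to 0.22 for MP between stages. It moved the median of all genes from 0.10 to 0.22 and from 0.10 to 0.25 in the first and last of these. In the trunk comparisons at E8.5 and E9.5 it moved that median from 0 to 0.09 and from -0.01 to 0.05. Without a level filter the medians were -0.38 for trunk notochord over NotoP at E9.5 and -0.031 for trunk notochord between stages, and without the members below 1 FPKM in any library, which left 71, the former was -0.39. That removal left 7 and 0 members past 3-fold in NotoP over MP at E8.5 and E9.5, 2 and 6 in trunk notochord over NotoP, and 1, 7 and 5 between stages in NotoP, MP and trunk notochord, where 11, 2, 8, 11, 3, 11 and 12 had passed. Without members that have a near-identical copy, 58 were left, of which 7 and 1 passed in NotoP over MP and 5 in trunk notochord over NotoP at E8.5. At 2-fold the counts were 28, 5 and 2 for NotoP over MP at E8.5, E9.5 and in culture, 17 and 24 for trunk notochord over NotoP, 7, 20 and 27 between stages, and 3 and 4 for NotoPdiff and MPdiff over NMPdiff. With a pseudocount of 0.1 FPKM 1, 1 and 2 members passed 3-fold in NotoPdiff over MPdiff, NotoPdiff over NMPdiff and MPdiff over NMPdiff, and with the rescaled sums 1 and 2 in the first and last, where none had. In NotoP over MP at E8.5, where 11 had passed, 13 did with that pseudocount and 16 with the rescaled sums. In trunk notochord over NotoP at E9.5, where 11 had, 12 did with either. With peak summits within 1000 bases, the count was 1 gene for T, 0 for Foxa2 and 1 for either. For these the cause was not tested beyond the fewer members, lower fold or shorter distance. The coefficients of variation without E8.5 MP and E9.5 trunk notochord were chosen after seeing the data. No paired analysis was possible because each group is 1 library and the labels give no replicate numbers, and stages were not used as replicates. The counting error of single values was not estimated.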
